A study of Mus musculus with 8 samples.

Results

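This section follows 42 genes of the lysosome, the acidic organelle in which a cell degrades proteins, sugars and lipids, across 8 RNA-seq libraries of mouse myeloid progenitor cells. The genes were chosen by name. All 42 were present among the 34199 genes counted. They comprise 10 proteases, 10 glycosidases, 3 sulfatases, 7 lipid and thioester hydrolases and their helper proteins, 7 membrane proteins, 2 sorting receptors, 1 transcription factor (Tfeb) and 2 subunits of the proton pump that acidifies the lumen.

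The cells were iGMPs, granulocyte-macrophage progenitors from the bone marrow of C57Bl/6 mice carrying a GFP reporter that reads out lysozyme. They self-renew because HOXA9, fused to a hormone-binding domain of the estrogen receptor, is active while estradiol is in the medium. CAF-1 is the chaperone that places histones H3 and H4 on newly made DNA, with Chaf1b coding for a subunit of it. The study set the response to CAF-1 loss beside the differentiation that follows loss of HOXA9 activity. Every library carried the HOXA9 fusion and the reporter, so no group represents unmodified progenitors, and the inducible cells were grown as clonal lines. Uninduced iGMPs, grown with estradiol at 150 ng/ml, are the 0 h libraries. CAF-1 OFF cells had received 500 micromolar IPTG for 48 h, which switched on a short hairpin RNA against Chaf1b, with estradiol present. IPTG-treated control cells were kept with IPTG and estradiol for 48 h, and their labels give neither the vector they carried nor the IPTG dose. HOXA9 OFF cells were cultured for 48 h without estradiol. There were 2 libraries in each group, and the p-values measure only the spread between these libraries. The study describes RNA-seq of independent sub-clones, but the labels tie no library to a clone or culture, so this spread may be clonal or technical. In the values below, replicate 1 comes first, and the IPTG-treated control group is called IPTG control.

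Most soluble lysosomal enzymes are made in the endoplasmic reticulum, tagged with mannose 6-phosphate in the Golgi and carried onward by receptors that recognise the tag. Many of the genes share a promoter element bound by TFEB and its relatives, by which the supply of lysosomes is matched to demand. Macrophages and neutrophils hold large stores of these enzymes and use them against engulfed material, so the genes are often followed as progenitors mature along the myeloid lineage.

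Between 14044284 and 22423837 reads were assigned to genes per library. Levels below are CPM, read counts scaled to library size and by the trimmed mean of M-values (TMM), and 3 counts, taken as the detection floor, equalled 0.128 to 0.212 CPM. Such floors cover counting error only. Chaf1b measured 18.7 and 9.72 CPM in CAF-1 OFF cells against 96.8 and 100.2 CPM in uninduced iGMPs, and 48.3 and 41.0 CPM in HOXA9 OFF cells. Of the defining progenitor markers Cd34, Kit, Flt3 and Mpo, none was below 244.9 CPM in an uninduced library. In bulk RNA, fewer cells of one type and less RNA per cell cannot be told apart.

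The HOXA9 OFF libraries stood apart from each other for these genes. Replicate 2 exceeded replicate 1 in 34 of the 41 members that passed the low-count filter, with a median log2 ratio of 0.47 against -0.03 over all 13080 genes tested. In 8 members (19.5%) it was at least 2-fold higher, as it was in 4.89% of all genes. The summed level of the 42 genes was 19520 CPM in replicate 1 and 40410 CPM in replicate 2, against 6439 and 6480 CPM (uninduced), 6232 and 6734 CPM (IPTG control) and 6849 and 7579 CPM (CAF-1 OFF). Psap, Ctsb and Ctsd alone made up 7188 and 23840 CPM of the HOXA9 OFF sums.

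Markers of mature myeloid cells also differed between the HOXA9 OFF libraries. The 11 macrophage markers summed to 1165 CPM in HOXA9 OFF replicate 1 and 4570 CPM in replicate 2, whereas the other 6 libraries lay between 29.2 and 183.6 CPM. Among them C1qb was 0.434 and 120.7 CPM, Trem2 was 10.5 and 95.2 CPM and Gpnmb was 78.8 and 2789 CPM in HOXA9 OFF replicates 1 and 2. The markers named here each differed more between these libraries than the remaining macrophage markers did as a sum. Without Gpnmb, left out after its values were seen, the other 10 summed to 1086 and 1781 CPM, so that replicate 2 exceeded replicate 1 1.64-fold instead of 3.92-fold. In replicate 1, 2 of the 11 were at 0, and in replicate 2 none was. The 10 neutrophil markers ran the other way, at 8190 CPM in replicate 1 and 5559 CPM in replicate 2. The 8 progenitor markers summed to 8244 and 5975 CPM in HOXA9 OFF cells and to 14840 and 10840 CPM in uninduced iGMPs, with Cd34, Flt3, Kit and Ctsg called lower and Ms4a3 called higher. The part of these markers in the HOXA9 OFF results and in the difference between the libraries was not tested, and calls or values that changed when one of these libraries was left out are given below.

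**Figure D1:**
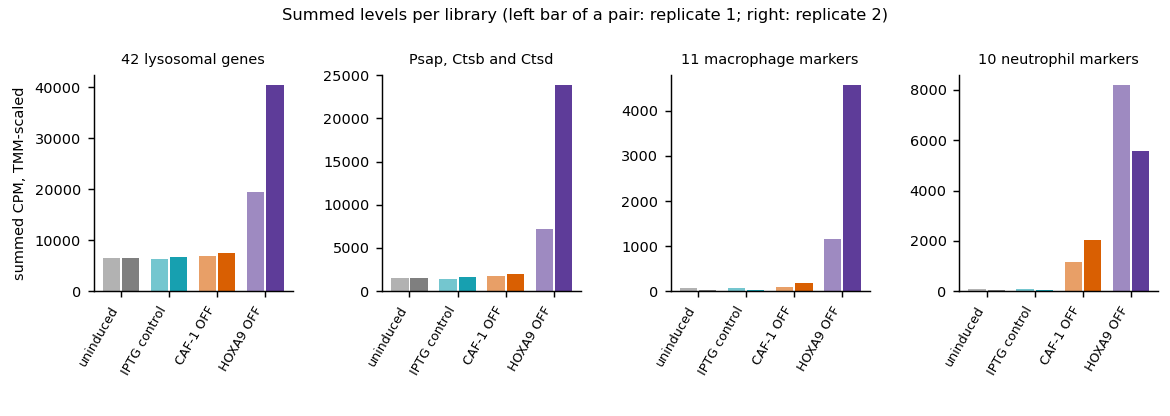
Summed TMM-scaled CPM (vertical axes, starting at 0) in each of 8 libraries for the 42 lysosomal genes, for Psap, Ctsb and Ctsd, and for macrophage and neutrophil markers; each bar is 1 library. The lysosomal sum was 19520 and 40410 CPM in HOXA9 OFF cells and at most 7579 CPM elsewhere, and within HOXA9 OFF cells the macrophage sum was also higher in replicate 2 while the neutrophil sum was lower.

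In uninduced iGMPs the lysosomal genes already covered a broad range of levels. Per kilobase of exon, Ctsd was the highest at 306.0 CPM per kb, and Cd63, a tetraspanin of late endosomes and lysosomes, overlapped it at 298.9 CPM per kb. Ctsz, a carboxypeptidase, followed at 254.7 CPM per kb, then Psap at 205.0 CPM per kb. Neither of these overlapped its neighbours. Ctsh, an aminopeptidase of the cathepsin family, lay at the other end. It had 2 counts and 0 counts in the uninduced libraries. In CAF-1 OFF cells Ctsd (378.1 CPM per kb) was again first and its libraries overlapped those of Ctsz (344.8 CPM per kb). In HOXA9 OFF cells Psap (2664 CPM per kb) and Ctsd (2151 CPM per kb) led, their libraries overlapping. These orders use the union of exons as the length. With the longest coding transcript instead, Ctsd no longer overlapped Cd63 in uninduced iGMPs, Psap overlapped Gusb (200.8 CPM per kb) there, and in CAF-1 OFF cells Cd63 took the second place before Ctsz.

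**Figure D2:**
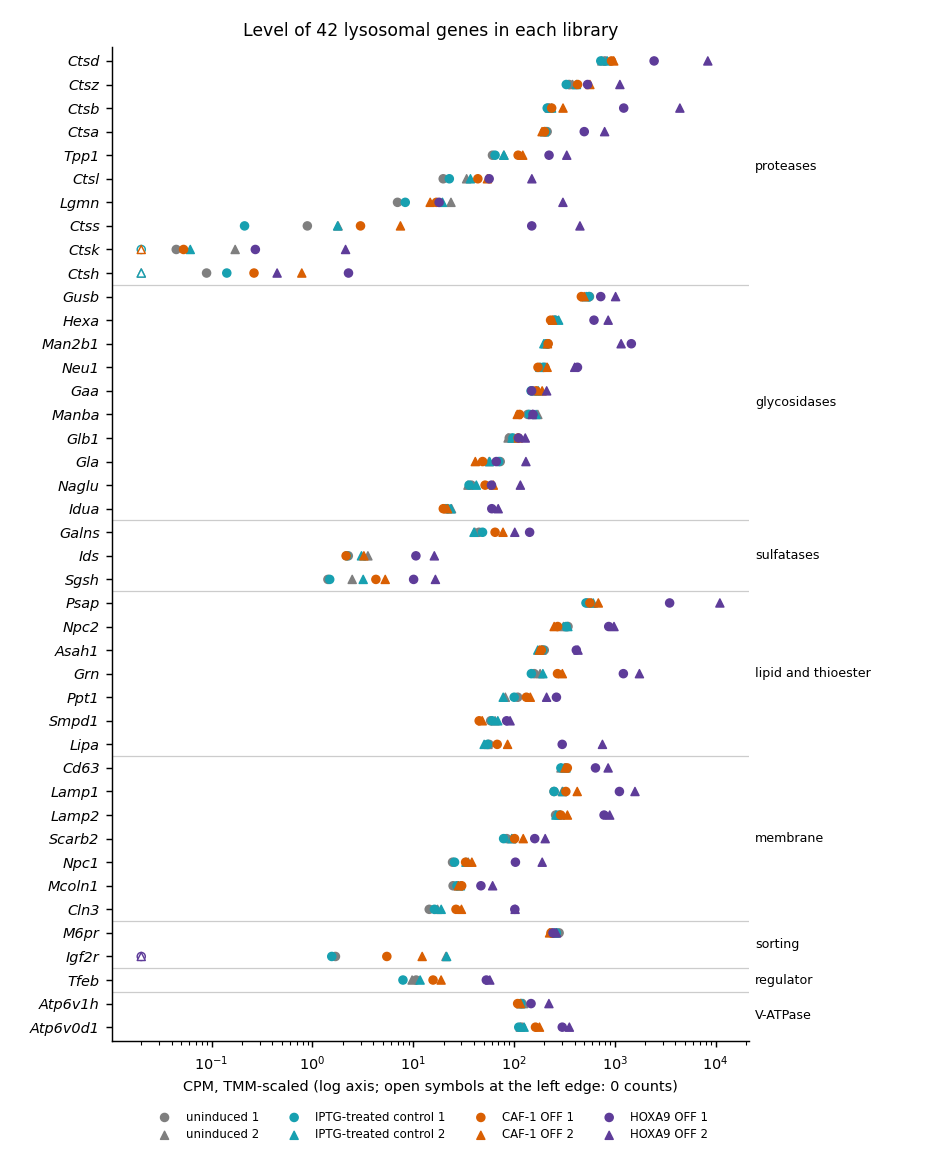
TMM-scaled CPM (horizontal log axis) of each of the 42 genes, by role, in every library; circles are replicate 1, triangles replicate 2, and open symbols at the left edge stand for 0 counts. HOXA9 OFF symbols lie to the right of the others for most genes, whereas M6pr (225.3 to 280.3 CPM) keeps one place and Igf2r is at 0 in HOXA9 OFF cells.

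Because TFEB and its relatives bind an E-box, CACGTG, that reads the same on both strands, the promoters of the members were searched for it, using RefSeq promoters of 300 bases (250 before and 50 after the start) in the mouse build GRCm38.p6. A promoter was found for 35 members. The E-box was present in 14 of their 41 promoters (34.1%) and in 7.15% of all 32851 promoters, and 7 (17.1%) held at least 2 copies, as did 0.594% of all. The longer form TCACGTG, on either strand and always containing the E-box, was in 13 member promoters (31.7%) and in 3.77% of all. The members without a promoter here were Ctsb, Ctsh, Galns, Npc1, Asah1, M6pr and Atp6v1h.

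Windows of 30 bases around one E-box each are shown for the member with the most copies (Lamp1), for Ctsd, for Cln3, which was called in each of the 4 comparisons that involve CAF-1 OFF or HOXA9 OFF cells, for the channel Mcoln1 and for the gene that fell in HOXA9 OFF cells (Igf2r), 5′ to 3′ on the strand of the gene with the E-box in capitals. The Lamp1 window lies at chr8:13159088-13159117 (plus strand), Ctsd at chr7:142387908-142387937 (minus), Cln3 at chr7:126583340-126583369 (minus), Mcoln1 at chr8:3500436-3500465 (plus) and Igf2r at chr17:12769737-12769766 (minus).
Lamp1: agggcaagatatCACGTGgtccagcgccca
Ctsd: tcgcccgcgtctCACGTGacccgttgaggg
Cln3: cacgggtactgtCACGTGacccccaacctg
Mcoln1: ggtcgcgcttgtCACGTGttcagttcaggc
Igf2r: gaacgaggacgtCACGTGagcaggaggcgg

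The Lamp1 promoter held 4 E-boxes, 61, 45, 28 and 15 bases before its start, and Ctsd held 2, 245 and 98 bases before the start. Cln3 held 2 (121 and 149 bases before), as did Mcoln1 (71 and 45 bases before) and Igf2r (48 and 7 bases before).

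To see how the lysosomal genes behave in differentiation after loss of HOXA9 activity, HOXA9 OFF cells were compared with uninduced iGMPs. Of the 41 members tested, 34 rose and 1, Igf2r, fell at a false discovery rate (FDR) under 0.05 with a change of at least 1.5-fold. Over all genes tested, 47.2% were called, 25.2% higher and 22.1% lower. The median log2 fold change of the members was 1.53, against 0.01 over all genes tested. Both HOXA9 OFF libraries lay above both uninduced libraries in 35 members (39.2% of all genes) and below both in 1 (38.9%). With library size alone in place of TMM, the median of all genes lay at -0.18 and 2715 genes were higher and 3701 lower, against 3293 and 2886 with TMM, while 32 members were higher and 1 lower. This comparison and that of CAF-1 OFF cells below share the uninduced libraries.

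The called count depended little on which HOXA9 OFF library was used. Without replicate 2, the library with the larger sums, 30 members were higher and 0 lower, and the calls of Atp6v1h, Ctsz, Gusb, Igf2r and Lgmn were lost. Without replicate 1, 35 were higher and 0 lower, with Ctsh and Igf2r lost and Ctsk and Gla gained. Among the controls, leaving out uninduced replicate 1 lost the calls of Atp6v1h, Ctsl, Ctsz and Lgmn, and leaving out uninduced replicate 2 lost those of Atp6v1h, Ctsh, Ctsz, Gusb, Igf2r and Lgmn. Among the 34 members that rose, leaving out 1 HOXA9 OFF library moved the fold change by over 1.5 times in Ctsb, Ctsd, Ctsh, Ctsl, Ctss, Ctsz, Lgmn, Lipa and Psap. In these fits the remaining library was assumed to vary like those of the other groups.

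**Figure D3:**
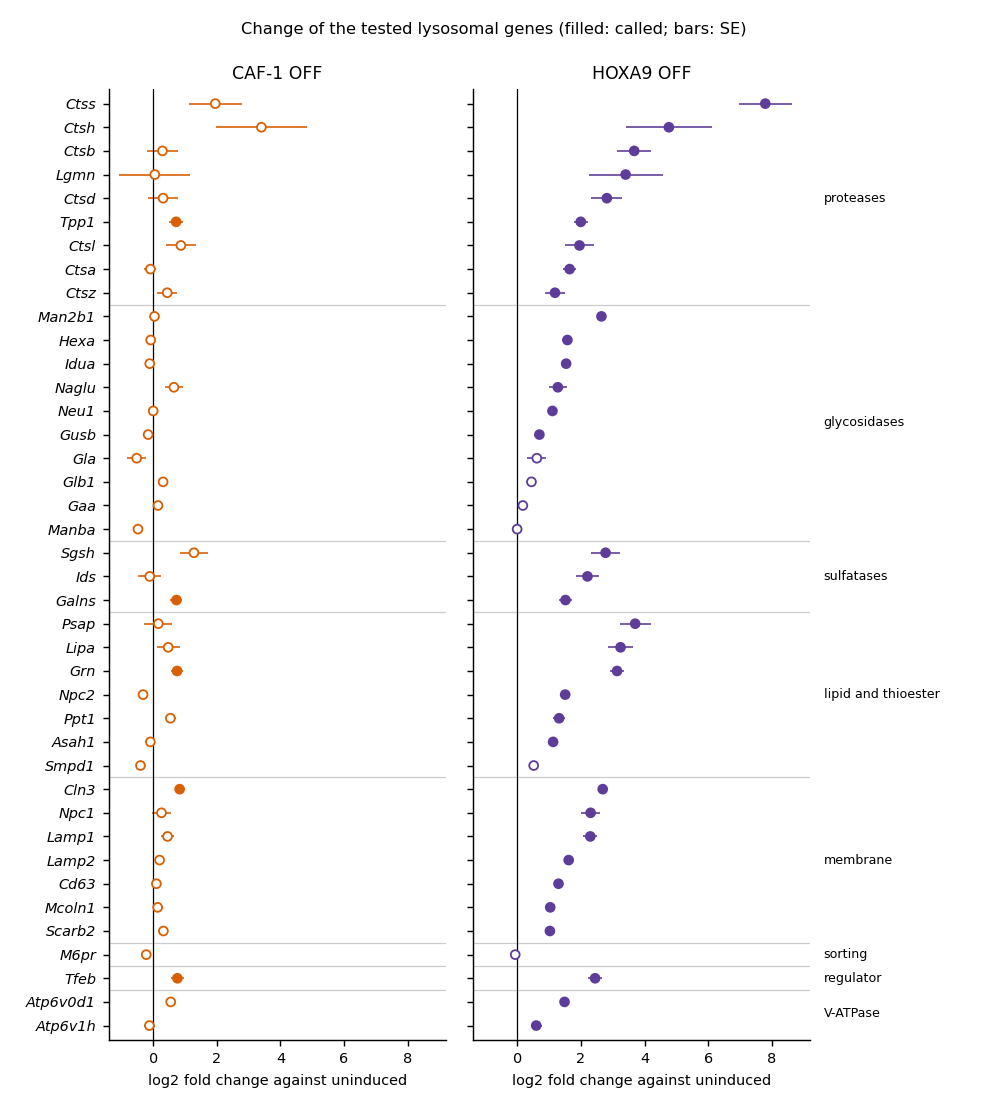
Log2 fold change against uninduced iGMPs (horizontal axes, same scale) of 40 tested genes in CAF-1 OFF cells (left) and HOXA9 OFF cells (right), by role; bars are standard errors and filled points passed FDR under 0.05 and 1.5-fold. In the left panel 5 points are filled and in the right panel 34; Igf2r, with 0 counts in HOXA9 OFF cells, is left out.

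Of the 10 proteases, 9 passed the filter on low counts and were called higher in HOXA9 OFF cells. Ctsh passed it only through libraries in which it was high, and without HOXA9 OFF replicate 2 Lgmn and Ctsz were not called, nor was Ctsh without replicate 1. Ctss, a cysteine protease used by antigen-presenting cells, measured 0.890 and 1.80 CPM (uninduced), 0.212 and 1.78 CPM (IPTG control), 3.00 and 7.47 CPM (CAF-1 OFF) and 150.0 and 451.2 CPM (HOXA9 OFF). The HOXA9 OFF libraries were far above every other library, and the CAF-1 OFF libraries lay above both control groups, without passing the test. Its log2 fold change in HOXA9 OFF cells was 7.79 ± 0.84 (SE, n = 2 per group, edgeR FDR 0.000169), with 6.79 without replicate 2 and 8.38 without replicate 1.

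Ctsb, a broadly expressed cysteine protease, stood at 219.2 and 223.9 CPM (uninduced), 213.6 and 236.0 CPM (IPTG control), 236.5 and 306.6 CPM (CAF-1 OFF) and 1227 and 4427 CPM (HOXA9 OFF). Ctsd, the main aspartic protease of lysosomes, stood at 797.4 and 744.3 CPM, 726.7 and 840.8 CPM, 928.4 and 976.6 CPM, and 2457 and 8382 CPM in the same order of groups. For both genes the HOXA9 OFF libraries were highest and more than 3-fold apart, and the CAF-1 OFF libraries lay just above the uninduced ones without passing the test. The rise in HOXA9 OFF cells was 3.67 ± 0.53 on the log2 scale for Ctsb (edgeR FDR 0.000714) and 2.81 ± 0.49 for Ctsd (edgeR FDR 0.00174). Without HOXA9 OFF replicate 2 it was 2.47 for Ctsb and 1.67 for Ctsd, and without replicate 1 it was 4.32 and 3.44, all 4 still called.

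Lgmn, the asparaginyl endopeptidase that processes other lysosomal enzymes, rested on a single library. It was 6.99 and 23.7 CPM (uninduced), 8.33 and 19.5 CPM (IPTG control), 16.99 and 14.73 CPM (CAF-1 OFF) and 18.1 and 305.9 CPM (HOXA9 OFF). HOXA9 OFF replicate 1 lay among the uninduced libraries and only replicate 2 was high. The log2 fold change of 3.40 ± 1.16 (edgeR FDR 0.0367) became 0.24 without replicate 2 (edgeR FDR 0.795) and 4.32 without replicate 1.

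Ctsh differed in the opposite direction between the HOXA9 OFF libraries and was under the floor of 3 counts in the control libraries. It had 2 and 0 counts (uninduced), 2 and 0 counts (IPTG control), 5 and 15 counts (CAF-1 OFF) and 42 and 9 counts (HOXA9 OFF). The summed HOXA9 OFF counts exceeded the uninduced ones 30.3-fold per scaled read, with an exact 95% counting interval of 7.97 to 257.0. The fitted log2 fold change of 4.76 ± 1.35 rests on those 2 uninduced counts (edgeR FDR 0.0175). The fitted change was 3.17 without HOXA9 OFF replicate 1 (edgeR FDR 0.116) and 5.51 without replicate 2. Ctsk, the collagen-degrading cathepsin of osteoclasts, did not pass the filter, with 1 and 4 counts (uninduced), 0 and 1 counts (IPTG control), 1 and 0 counts (CAF-1 OFF) and 5 and 43 counts (HOXA9 OFF).

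The proteases not yet described rose by 1.18 to 1.99 on the log2 scale. Tpp1, a tripeptidyl peptidase, and Ctsl, a cysteine protease, stood at the upper end with 1.99 and 1.95 (for Ctsl 1.08 without HOXA9 OFF replicate 2 and 2.49 without replicate 1), and Ctsa, the protective protein of sialidase and galactosidase, rose by 1.64. Ctsz measured 352.7 and 381.5 CPM (uninduced), 330.3 and 416.5 CPM (IPTG control), 427.5 and 566.2 CPM (CAF-1 OFF) and 537.3 and 1124 CPM (HOXA9 OFF). HOXA9 OFF replicate 1 was close to CAF-1 OFF replicate 2, and the change of 1.18 ± 0.32 (edgeR FDR 0.0146) fell below the fold threshold, to 0.55, without HOXA9 OFF replicate 2 and was 1.61 without replicate 1.

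The glycosidases, which trim sugars from glycoproteins, glycolipids and glycogen, were divided. Of 10 tested, 6 rose in HOXA9 OFF cells and the other 4 were not called. Man2b1, the alpha-mannosidase that dismantles N-linked glycans, was 216.9 and 204.3 CPM (uninduced), 211.7 and 197.8 CPM (IPTG control), 218.0 and 214.9 CPM (CAF-1 OFF) and 1460 and 1156 CPM (HOXA9 OFF). It was high in both HOXA9 OFF libraries, more so in replicate 1, and level elsewhere. The increase was 2.64 ± 0.14 on the log2 scale (edgeR FDR 1.45e-05).

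Hexa, a subunit of beta-hexosaminidase, rose by 1.57, Idua, which acts on dermatan and heparan sulfate, by 1.53, and Naglu, another enzyme of heparan sulfate breakdown, by 1.27 on the log2 scale. Neu1, the lysosomal sialidase, was 202.9 and 182.4 CPM (uninduced), 194.2 and 180.4 CPM (IPTG control), 173.0 and 213.3 CPM (CAF-1 OFF) and 426.4 and 400.2 CPM (HOXA9 OFF). Both HOXA9 OFF libraries were above all others, with a log2 fold change of 1.10 ± 0.13 (edgeR FDR 0.000223). Gusb, beta-glucuronidase, stood at 560.9 and 518.5 CPM, 555.4 and 521.4 CPM, 466.0 and 497.6 CPM, and 725.8 and 1019 CPM in the same order, a change of 0.69 ± 0.16 (edgeR FDR 0.00729). CAF-1 OFF cells had the lowest Gusb levels and HOXA9 OFF cells the highest, and the HOXA9 OFF call was lost without replicate 2 (0.43) and with library size alone.

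Of the glycosidases that were not called, Gaa, the glycogen-degrading alpha-glucosidase, was 149.5 and 210.9 CPM in HOXA9 OFF cells against 152.1 and 168.8 CPM in uninduced iGMPs, and Manba, beta-mannosidase, was 154.3 and 151.9 CPM against 136.8 and 172.3 CPM. In both, the groups overlapped. Glb1, beta-galactosidase, had a log2 fold change of 0.44 (edgeR FDR 0.00683), below the fold threshold. Gla, alpha-galactosidase A, was 66.8 and 131.3 CPM against 73.0 and 56.6 CPM (0.61, edgeR FDR 0.112), so that HOXA9 OFF replicate 1 fell within the uninduced range and only replicate 2 was above it. Its change was 1.02 and called without HOXA9 OFF replicate 1, and 0.05 without replicate 2.

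All 3 sulfatases rose. Sgsh, the heparan sulfamidase, increased by 2.77 and Ids, iduronate 2-sulfatase, by 2.20 on the log2 scale, both from low levels of 1.42 to 3.55 CPM in uninduced iGMPs. Galns, which removes sulfate from keratan and chondroitin sulfate, rose by 1.51 and was higher in replicate 1 (142.9 CPM) than in replicate 2 (101.8 CPM) of HOXA9 OFF cells. Reads of overlapping genes may have been shared where the counting did not use strand, which was not stated. Sgsh shared 21.6% of its exon bases with genes on the other strand, Ctsa 17.4% and Ctsb 16.2%, and the 50-base stretches of every member's transcript were at least 99.9% unique among coding transcripts.

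Among the 7 lipid and thioester hydrolases and helpers, 6 rose in HOXA9 OFF cells. Psap, precursor of the saposins that present sphingolipids to their hydrolases, was 533.3 and 585.7 CPM (uninduced), 518.0 and 610.9 CPM (IPTG control), 566.4 and 686.7 CPM (CAF-1 OFF) and 3503 and 11040 CPM (HOXA9 OFF). The CAF-1 OFF and uninduced libraries overlapped, and the HOXA9 OFF libraries were both high but differed 3.15-fold. Its log2 fold change was 3.70 ± 0.49 (edgeR FDR 0.000422), with 2.65 without HOXA9 OFF replicate 2 and 4.30 without replicate 1.

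Lipa, the acid lipase that frees cholesterol from its esters, measured 56.5 and 55.2 CPM (uninduced), 54.7 and 50.6 CPM (IPTG control), 68.1 and 86.4 CPM (CAF-1 OFF) and 300.8 and 754.5 CPM (HOXA9 OFF). Grn, progranulin, a regulator of lysosomal function that is cut into granulins, was 158.7 and 181.5 CPM, 148.7 and 193.4 CPM, 270.2 and 301.9 CPM, and 1217 and 1757 CPM in the same order. Both genes were ranked HOXA9 OFF, CAF-1 OFF and controls with no overlap between these 3 sets of libraries. In HOXA9 OFF cells Lipa rose by 3.24 ± 0.39 (edgeR FDR 0.000275) and Grn by 3.13 ± 0.22 (edgeR FDR 2.72e-05) on the log2 scale. Without HOXA9 OFF replicate 2 the change of Lipa was 2.43, and without replicate 1 it was 3.76.

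Npc2, which hands cholesterol to Npc1 in the membrane, rose from 343.5 and 309.8 CPM in the uninduced libraries to 871.0 and 982.7 CPM in the HOXA9 OFF libraries, and Ppt1, which removes palmitate from proteins, rose by 1.31 on the log2 scale. Asah1, acid ceramidase, was 199.7 and 189.3 CPM (uninduced), 192.9 and 172.2 CPM (IPTG control), 187.0 and 178.7 CPM (CAF-1 OFF) and 415.4 and 431.7 CPM (HOXA9 OFF), a change of 1.12 ± 0.10 (edgeR FDR 6.56e-05). Its HOXA9 OFF libraries were close together and above all others. Smpd1, acid sphingomyelinase, had a log2 fold change of 0.51 (edgeR FDR 0.00656), which is short of 1.5-fold.

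All 7 membrane proteins rose in HOXA9 OFF cells, by 1.02 to 2.68 on the log2 scale. Cln3, a membrane protein mutated in juvenile Batten disease, changed most and was 101.9 and 102.6 CPM in the HOXA9 OFF libraries. Npc1, the cholesterol transporter, rose by 2.30. The abundant glycoproteins that line the lysosomal membrane, Lamp1 and Lamp2, rose by 2.29 and 1.61, and Cd63 by 1.29.

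At the lower end of that set, Mcoln1, a calcium channel of the lysosome, was 24.9 and 28.1 CPM (uninduced), 27.2 and 29.4 CPM (IPTG control), 30.3 and 28.1 CPM (CAF-1 OFF) and 47.0 and 61.4 CPM (HOXA9 OFF) (1.03 ± 0.16, edgeR FDR 0.000872). Scarb2, the receptor that carries glucocerebrosidase to lysosomes, was 84.6 and 95.1 CPM, 78.9 and 95.2 CPM, 101.3 and 123.5 CPM, and 160.6 and 204.0 CPM in the same order (1.02 ± 0.16, edgeR FDR 0.00119). Each was highest in both HOXA9 OFF libraries, and for Scarb2 the CAF-1 OFF libraries also lay above both control groups, without passing the test.

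The sorting receptors, which carry mannose 6-phosphate-tagged enzymes from the Golgi, did not follow the hydrolases. M6pr, the cation-dependent receptor, was 280.3 and 252.9 CPM (uninduced), 263.3 and 256.6 CPM (IPTG control), 232.8 and 225.3 CPM (CAF-1 OFF) and 243.9 and 264.4 CPM (HOXA9 OFF), with HOXA9 OFF and uninduced libraries overlapping (edgeR FDR 0.572). Igf2r (chr17:12875272-12962530, minus strand, mm9), the cation-independent receptor that also binds insulin-like growth factor 2, had 38 and 494 counts (uninduced), 22 and 350 counts (IPTG control), 104 and 235 counts (CAF-1 OFF) and 0 counts in both HOXA9 OFF libraries.

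Replicate 2 therefore held more Igf2r than replicate 1 in each of the 3 other groups, at 21.1 against 1.69 CPM (uninduced), 21.5 against 1.55 CPM (IPTG control) and 12.3 against 5.47 CPM (CAF-1 OFF). Set against the floor of 3 counts in the smaller HOXA9 OFF library, the uninduced mean made Igf2r at least 70.1-fold lower after HOXA9 loss. With uninduced replicate 1 alone the bound was 10.4-fold. Its edgeR FDR was 0.0195 and rose to 0.0577 or 0.0596 when 1 HOXA9 OFF library was left out. The call was also lost without uninduced replicate 2.

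Tfeb, the transcription factor that drives lysosomal gene expression, was 10.7 and 9.75 CPM (uninduced), 7.91 and 11.7 CPM (IPTG control), 15.7 and 18.9 CPM (CAF-1 OFF) and 53.2 and 57.5 CPM (HOXA9 OFF). HOXA9 OFF, CAF-1 OFF and control libraries formed 3 separate steps. The rise in HOXA9 OFF cells was 2.44 ± 0.21 on the log2 scale (edgeR FDR 5.73e-05) and was 2.38 and 2.49 without replicate 2 and replicate 1.

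Both proton pump subunits rose as well. Atp6v0d1 belongs to the membrane-embedded part of the V-ATPase and increased by 1.48. Atp6v1h, of the cytosolic part, was 120.4 and 124.4 CPM (uninduced), 116.6 and 117.3 CPM (IPTG control), 108.7 and 115.8 CPM (CAF-1 OFF) and 147.6 and 222.1 CPM (HOXA9 OFF). CAF-1 OFF libraries were lowest and HOXA9 OFF libraries highest. Its change of 0.59 ± 0.17 (edgeR FDR 0.0196) was just past the fold threshold and fell to 0.27 without HOXA9 OFF replicate 2. The call was also lost with the replicate number as a block, with library size alone, with no filter on low counts and with only the compared groups fitted.

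**Figure D4:**
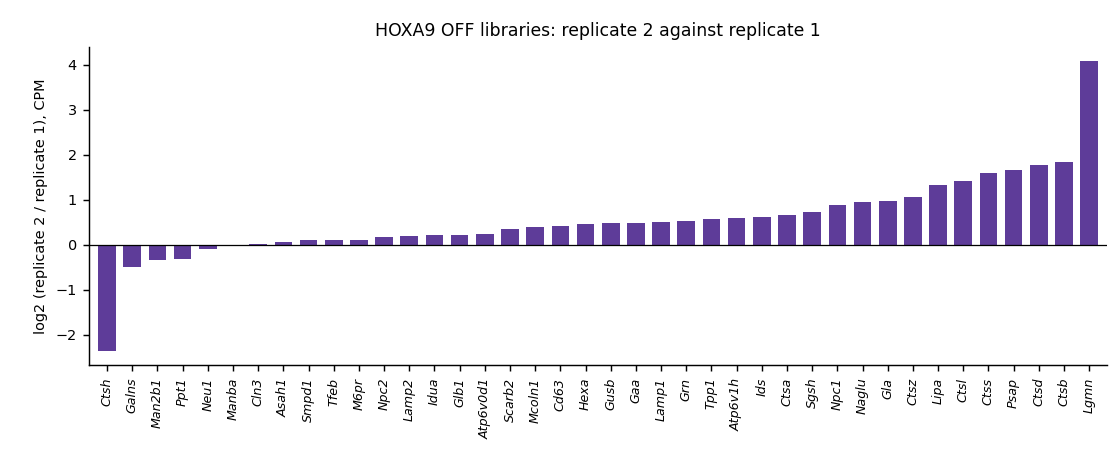
Log2 ratio of CPM in HOXA9 OFF replicate 2 over replicate 1 (vertical axis) for 40 tested genes, ordered by the ratio; Igf2r is left out because both libraries were at 0. Most bars lie above 0, and Lgmn (18.1 and 305.9 CPM in replicates 1 and 2), Ctsb and Ctsd are at the right end, whereas Ctsh, Galns, Man2b1 and Ppt1 lie below 0.

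Next, the genes were examined after loss of CAF-1. Of 41 members tested, 5 rose and 0 fell in CAF-1 OFF cells against uninduced iGMPs, which is 12.2% called, against 14% of all genes tested (10.5% higher and 3.5% lower). The share called was close to the background. At an unadjusted p-value under 0.05, 15 members (36.6%) and 36.8% of all genes passed. The median log2 fold change was 0.20 for the members and 0.01 for all genes. Both CAF-1 OFF libraries were above both uninduced libraries in 21 members (35.2% of all genes) and below both in 10 (33% of all genes). Without a fold threshold, 6 members were higher and 2 lower by edgeR FDR under 0.05, and 20.8% of all genes passed.

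The 5 members that rose came from 5 different roles: the membrane protein Cln3, the transcription factor Tfeb, progranulin (Grn), the sulfatase Galns and the protease Tpp1. Cln3 (chr7:133714721-133729331, minus strand, mm9) was 14.4 and 17.5 CPM (uninduced), 16.2 and 18.9 CPM (IPTG control), 26.6 and 30.1 CPM (CAF-1 OFF) and 101.9 and 102.6 CPM (HOXA9 OFF). Both CAF-1 OFF libraries stood between the controls and the HOXA9 OFF cells. Its increase in CAF-1 OFF cells was 0.83 ± 0.14 against uninduced iGMPs (edgeR FDR 0.0109) and 0.69 ± 0.14 against IPTG-treated control cells (edgeR FDR 0.0202). Cln3 shares 7.65% of its exon bases with Apobr on the other strand.

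Tfeb (chr17:47873979-47929368, plus strand, mm9), whose values are given above, rose in CAF-1 OFF cells by 0.76 ± 0.20 against uninduced iGMPs (edgeR FDR 0.0359) and by 0.82 ± 0.21 against IPTG-treated control cells (edgeR FDR 0.0337). Grn (chr11:102291629-102298123, plus strand, mm9) rose by 0.75 ± 0.20 (edgeR FDR 0.0366) and 0.74 ± 0.20 (edgeR FDR 0.042) in the same comparisons. For both genes every CAF-1 OFF library was above all 4 control libraries and below both HOXA9 OFF libraries.

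Galns (chr8:125102138-125135304, minus strand, mm9) was 45.0 and 40.9 CPM (uninduced), 48.7 and 40.1 CPM (IPTG control) and 64.9 and 77.8 CPM (CAF-1 OFF). It rose by 0.73 ± 0.19 against uninduced iGMPs (edgeR FDR 0.0319) and by 0.69 ± 0.19 against IPTG-treated control cells (edgeR FDR 0.0432). Tpp1 (chr7:112893334-112900738, minus strand, mm9) was 61.2 and 79.4 CPM (uninduced), 64.9 and 79.3 CPM (IPTG control), 109.9 and 122.1 CPM (CAF-1 OFF) and 222.7 and 333.9 CPM (HOXA9 OFF). The CAF-1 OFF libraries of both genes were above the controls. Tpp1 passed against uninduced iGMPs (0.72 ± 0.21, edgeR FDR 0.0499) and missed against IPTG-treated control cells (0.69 ± 0.21, edgeR FDR 0.0631). The first call was lost with library size alone and with a filter at a mean of 50 counts, and the second was made by DESeq2, with no filter and with only the compared groups fitted.

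**Figure D5:**
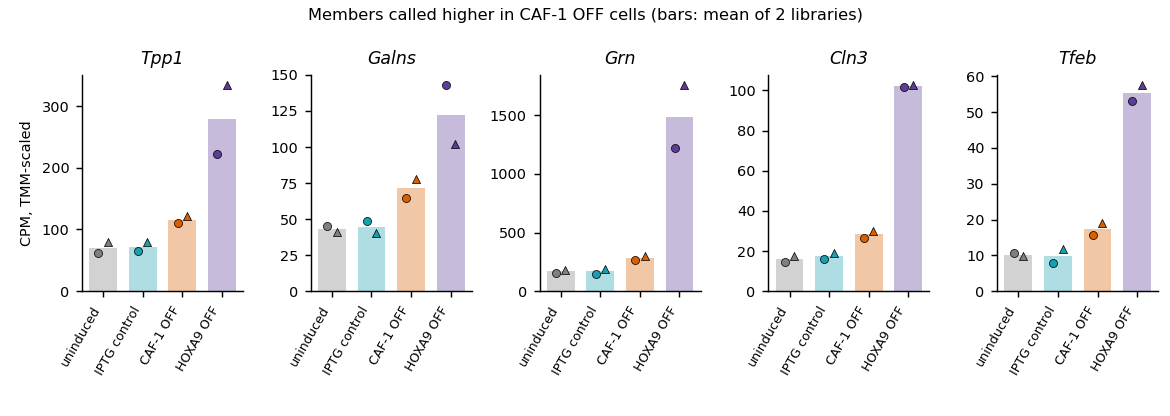
TMM-scaled CPM (vertical axes, starting at 0) of the 5 genes called higher in CAF-1 OFF cells against uninduced iGMPs; bars are means of 2 libraries, circles replicate 1 and triangles replicate 2. In each gene the CAF-1 OFF points lie above the 4 control points and below both HOXA9 OFF points.

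These calls had little margin. Leaving out uninduced replicate 1 or CAF-1 OFF replicate 2 left 0 members called, leaving out uninduced replicate 2 or CAF-1 OFF replicate 1 left Cln3, without IPTG-treated control replicate 1 the calls of Galns and Tpp1 were lost, and without replicate 2 of that group the call of Tpp1 was lost. The log2 fold changes stayed between 0.54 and 0.97 over the 5 genes and 15 alternatives.

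Other members differed without passing both criteria. Atp6v0d1 was 119.0 and 115.5 CPM (uninduced) and 163.4 and 179.0 CPM (CAF-1 OFF), a log2 fold change of 0.55 (edgeR FDR 0.0191), which is under 1.5-fold. In the lower direction, Manba went from 136.8 and 172.3 CPM (uninduced) to 113.5 and 107.8 CPM (CAF-1 OFF), a log2 fold change of -0.48 (edgeR FDR 0.0394). For Smpd1 the values were 58.7 and 65.0 CPM and then 45.1 and 48.4 CPM (-0.40, edgeR FDR 0.0467). In all 3 genes the libraries of the groups did not overlap. Ctss, Ctsl, Sgsh and Naglu had log2 fold changes of 1.95, 0.87, 1.28 and 0.65 with edgeR FDR between 0.0791 and 0.216, and in each of them both CAF-1 OFF libraries were above both uninduced libraries. Fitting only the compared groups called Ctsl, Ctss and Naglu, and the replicate number as a block called Ctsl, Ctss and Sgsh.

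Against IPTG-treated control cells, 4 members rose in CAF-1 OFF cells (Cln3, Tfeb, Grn and Galns) and 0 fell, which is 9.76% of the members, and 12.8% of all genes tested were called (9.56% higher and 3.2% lower). At an unadjusted p-value under 0.05, 11 members (26.8%) and 35.4% of all genes passed. The median log2 fold change was 0.19 for the members and 0.01 for all genes. Leaving out any 1 CAF-1 OFF or IPTG-treated control library left 0 members called. This comparison shares no library with that of HOXA9 OFF cells and uninduced iGMPs, in which all 4 genes also rose, as did 82.9% of the members tested. Both came from a single fit with a shared estimate of spread, so they are not independent. Calls against IPTG-treated control cells were also lost when an uninduced library was left out.

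Markers of several cell types moved in CAF-1 OFF cells beside these members. The neutrophil markers summed to 1161 and 2053 CPM in CAF-1 OFF cells against 50.2 to 67.9 CPM in uninduced iGMPs, and the macrophage markers to 96.3 and 183.6 CPM against 31.7 to 60.2 CPM. The mast cell and basophil markers summed to 1042 and 655.9 CPM against 148.2 to 198.4 CPM, and the megakaryocyte and erythroid markers to 301.2 and 313.8 CPM against 88.8 to 103.4 CPM. Called higher were 6 of 10 neutrophil and 2 of 8 macrophage markers tested, against 10.5% of all genes. So were 2 of 3 mast cell and basophil markers, Cpa3 and Mcpt8, and 3 of 5 megakaryocyte and erythroid markers. The progenitor markers summed to 16250 and 16290 CPM against 10840 to 14840 CPM, with 1 of the 8, Elane, called higher. Their part in the results was not tested.

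Cells given IPTG for 48 h served as the background. Of 41 members, 0 were called by edgeR between IPTG-treated control cells and uninduced iGMPs, as were 0% of all genes. At an unadjusted p-value under 0.05, 0 members and 100 of all 13080 genes passed. DESeq2 called 0 members and 4 genes in all. Log2 fold changes ran from -0.38 to 0.54. The IPTG libraries lay above both uninduced libraries in 1 member (8.86% of all genes) and below both in 2 (9.47% of all genes).

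To test whether the responses to the 2 perturbations differ, CAF-1 OFF cells were compared with HOXA9 OFF cells. In CAF-1 OFF cells 32 members were lower and 1, Igf2r, was higher, and 43.5% of all genes tested were called, 21.4% lower and 22.2% higher. The median log2 fold change was -1.26 for the members and 0.04 for all genes. Both CAF-1 OFF libraries were below both HOXA9 OFF libraries in 36 members (37.4% of all genes). Without HOXA9 OFF replicate 2, 27 members were lower and 0 higher, and the calls of Atp6v1h, Gla, Igf2r, Lgmn, Scarb2 and Sgsh were lost. Without replicate 1, 35 were lower and 0 higher, with Galns and Igf2r lost and Ctsk, Ctsl, Ctsz and Naglu gained. Leaving out CAF-1 OFF replicate 1 lost the calls of Atp6v1h, Galns, Lgmn, Ppt1, Scarb2 and Sgsh, and leaving out CAF-1 OFF replicate 2 lost those of Gla, Igf2r, Lgmn and Sgsh.

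Among the members lower in CAF-1 OFF cells, the most distant was Ctss, at -5.84 ± 0.74 (edgeR FDR 0.000501), followed by Psap at -3.54 ± 0.48 (edgeR FDR 0.000691) and Ctsb at -3.38 ± 0.53 (edgeR FDR 0.00129). Lgmn, at -3.35 ± 1.16 (edgeR FDR 0.0409), was not called without HOXA9 OFF replicate 2 (-0.20, edgeR FDR 0.83). Lipa (-2.77 ± 0.38, edgeR FDR 0.000725) and Man2b1 (-2.60 ± 0.14, edgeR FDR 2.49e-05) came next. Ctsd (-2.51 ± 0.48, edgeR FDR 0.00342) and Grn (-2.38 ± 0.21, edgeR FDR 0.000105) completed the 8 largest differences in this direction. Without HOXA9 OFF replicate 2 the difference was -4.85 for Ctss, -2.49 for Psap, -2.19 for Ctsb, -1.97 for Lipa and -1.38 for Ctsd, all still called, and without replicate 1 it was -6.44, -4.15, -4.04, -3.30 and -3.15 in the same order. In each of these 8 genes both CAF-1 OFF libraries lay below both HOXA9 OFF libraries.

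The 5 genes that rose in CAF-1 OFF cells were each lower there than in HOXA9 OFF cells. The difference was -1.85 ± 0.14 for Cln3 (edgeR FDR 6.67e-05), -1.68 ± 0.20 for Tfeb (edgeR FDR 0.000386), -1.26 ± 0.21 for Tpp1 (edgeR FDR 0.00194) and -0.78 ± 0.19 for Galns (edgeR FDR 0.00921). For Galns the difference was -0.52 without HOXA9 OFF replicate 1, below the fold threshold.

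Smaller called differences were those of Scarb2 (-0.70 ± 0.16, edgeR FDR 0.00822), Atp6v1h (-0.72 ± 0.17, edgeR FDR 0.00961) and Ppt1 (-0.77 ± 0.18, edgeR FDR 0.009). Without HOXA9 OFF replicate 2 the difference was -0.53 for Scarb2 and -0.40 for Atp6v1h, both below the fold threshold. Gusb (-0.86 ± 0.16, edgeR FDR 0.00318), Mcoln1 (-0.89 ± 0.16, edgeR FDR 0.00219) and Smpd1 (-0.91 ± 0.12, edgeR FDR 0.000514) differed a little more. Ppt1 was 108.8 and 82.0 CPM (uninduced), 100.4 and 78.2 CPM (IPTG control), 132.7 and 145.1 CPM (CAF-1 OFF) and 263.6 and 210.7 CPM (HOXA9 OFF), 3 steps without overlap. Smpd1 instead was lowest in CAF-1 OFF cells and highest in HOXA9 OFF cells, where it was 84.6 and 91.4 CPM.

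Igf2r was higher in CAF-1 OFF cells than in HOXA9 OFF cells by at least 54.5-fold against the floor (edgeR FDR 0.0254), or 33.6-fold with CAF-1 OFF replicate 1 alone and 75.4-fold with replicate 2 alone, and this call was lost when either HOXA9 OFF library was left out (edgeR FDR 0.0727 and 0.0742). With library size alone in place of TMM, 27 members were lower in CAF-1 OFF cells, and Atp6v1h, Galns, Lgmn, Ppt1 and Scarb2 were no longer called.

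Genes of the lysosome beyond the 42 were counted in lists of other hydrolases, membrane proteins, V-ATPase genes, mannose 6-phosphate tagging and sorting genes, regulators and cystatins, 82 in all with 77 tested. In HOXA9 OFF cells 56 of the 77 rose and 3 fell, which is 76.6% called against 47.2% of all genes, with a median log2 fold change of 1.16. By list, 19 of 24 other hydrolases, 13 of 18 membrane proteins, 13 of 16 V-ATPase genes and 6 of 9 regulators rose, as did 3 of 7 tagging and sorting genes and 2 of 3 cystatins. Ctse, an aspartic protease, stood out at 44.4 and 17.5 CPM (HOXA9 OFF) against 0.356 and 0.599 CPM (uninduced), a log2 fold change of 6.00 (edgeR FDR 0.000579). Atp6v0d2, a V-ATPase subunit of osteoclasts and macrophages, had no read in uninduced iGMPs and was 1.74 and 46.2 CPM in HOXA9 OFF replicates 1 and 2. It is counted among the 13 V-ATPase genes but passed the low-count filter only through libraries in which it was high. The called genes that decreased most were Gnptab (-1.05, edgeR FDR 0.00148), a subunit of the enzyme that starts the mannose 6-phosphate tag, and Cst7 (-0.98, edgeR FDR 0.000977), a cystatin that inhibits cathepsins.

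In CAF-1 OFF cells 7 of the 77 rose and 2 fell against uninduced iGMPs, with a median of 0.14, and 5 rose and 1 fell against IPTG-treated control cells. These are 11.7% and 7.79% called, below the 14% and 12.8% of all genes. The metal transporter Slc11a1 (1.38, edgeR FDR 0.0494) and the sulfatase Arsb (1.27, edgeR FDR 0.014) had the highest called changes against uninduced iGMPs, and Mfsd8, a lysosomal membrane protein (-0.73, edgeR FDR 0.045), and the nuclease Dnase2a (-0.67, edgeR FDR 0.0484) the lowest. Against IPTG-treated control cells, Mitf, a relative of Tfeb (1.28, edgeR FDR 0.0423), and Arsb (1.09, edgeR FDR 0.0232) were highest, and Mfsd8 was the gene that fell (-0.75, edgeR FDR 0.0456). Against HOXA9 OFF cells 55 were lower and 5 higher in CAF-1 OFF cells, which is 77.9% called against 43.5% of all genes, with a median of -1.13, among them Ctse (-4.47, edgeR FDR 0.00191) and Atp6v0d2, at 0.0526 and 0.313 CPM (CAF-1 OFF), at the lower end and Acp5, tartrate-resistant acid phosphatase (1.78, edgeR FDR 0.0276), and Gnptab (1.48, edgeR FDR 0.000384) at the upper end.

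The E-box was set beside the response as a description. In HOXA9 OFF cells the 14 with an E-box had a median log2 fold change of 1.56, with 10 higher and 1 lower, and the 20 tested members with a promoter lacking it had a median of 1.55, with 18 higher. Igf2r, which fell, and Lamp1, which rose by 2.29, both carried it, whereas the promoters of Ctss, Psap, Lipa, Grn and Tfeb in this table did not.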

How the data were processed

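Total RNA libraries of mouse iGMPs (directional library kit) were sequenced by the authors. The values deposited are whole counts of reads for each gene, which per the labels and the study's methods the authors obtained with STAR alignment to mm9 and HTSeq-count. The annotation version and the strand setting are not given in the sources used here. The 5 HTSeq summary lines were kept out of library sizes and tests, and exon spans and lengths came from GENCODE annotation of mm9.

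Of 34199 genes, 21216 had a count and 13080 passed edgeR's filterByExpr (edgeR 4.0.16, limma 3.58.1, R 4.3.3). Counts were TMM-scaled and tested by edgeR's quasi-likelihood test in a single fit of all 8 libraries with a mean per group. P-values were adjusted by the Benjamini-Hochberg method over all genes tested, and calls had to pass FDR 0.05 and 1.5-fold, the cut-offs of the study's methods. DESeq2 1.42.0 was an alternative. The other alternatives changed the scaling, the low-count filter, the call threshold, the libraries in the fit and the replicate block. SE is an approximate standard error, the size of the log2 fold change divided by the square root of the F statistic of edgeR's test. It draws on the spread within all 4 groups, not only on the 2 libraries of each group compared. No molecular identifiers were used, so counting intervals and floors cover counting error only.

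On simulated counts with 12164 genes, made for HOXA9 OFF against uninduced, 62% of changes of log2 size 1 and 87% of those of log2 size 2 were recovered, with 7 false calls. The simulation changed 100 genes of each size, whereas 47.2% of genes were called in the data. It also gave both libraries of a group the same expected levels, so these rates need not hold for the data.

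The members and gene lists were chosen with earlier results of these data known. Full statistics were given for members called in CAF-1 OFF cells, and in the other 2 comparisons for the 8 called members with the highest and the 8 with the lowest change. Genes outside the 42 were named as the targeted gene, as cell type markers, or as the 2 highest and 2 lowest called lysosome genes of a comparison. A planned comparison of cathepsin protein sequences was not run, because protein sequences were not used here.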

Additional observations from a re-analysis of the deposited data

How the results depend on the processing

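The 35 calls in HOXA9 OFF cells against uninduced iGMPs ranged from 29 to 37 over all alternatives and were 35 when set against IPTG-treated control cells, and IPTG-treated control cells against uninduced iGMPs gave 0 calls throughout. The CAF-1 OFF calls depended on more choices. Against uninduced iGMPs (5 calls) there were 8 with only the compared groups fitted, 8 with a replicate block, 0 at FDR 0.01 and 2-fold, and 8 with no fold threshold. Against IPTG-treated control cells (4 calls) there were 8 with a replicate block, 0 at FDR 0.01 and 2-fold, and 7 with no fold threshold. Leaving out 1 library gave 0 to 6 and 0 to 7 calls, respectively. Between CAF-1 OFF and HOXA9 OFF cells (33 calls) there were 21 at FDR 0.01 and 2-fold and 27 to 35 when 1 library was left out. With library size alone the median of all genes lay at 0.27 there, with 3949 genes higher and 2064 lower against 2898 and 2797 with TMM. The replicate block made Ctsl, Ctss and Sgsh called against uninduced iGMPs and Ctss, Ppt1, Sgsh and Tpp1 against IPTG-treated control cells, and it removed the call of Atp6v1h in HOXA9 OFF cells against uninduced iGMPs and added Ctsl and Ctsz between CAF-1 OFF and HOXA9 OFF cells. Replicate numbers came from the labels, and the deviations of same-numbered libraries correlated at 0.30 to 0.48 among the groups other than CAF-1 OFF but at -0.04 to 0.08 with CAF-1 OFF cells, so the numbers were not taken as pairs. Ctsh between CAF-1 OFF and HOXA9 OFF cells, at -1.36 and not called, changed sign to 0.22 without HOXA9 OFF replicate 1 and was -2.33 without CAF-1 OFF replicate 2. The bounds of Igf2r from single libraries and the macrophage sum without Gpnmb were added after seeing the data. The causes of these differences were not tested. With 2 libraries per group and 1.5-fold as the cut-off, smaller differences could not be called, and Ctsh and Ctsk were limited by their counts.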
